A study of Mus musculus with 37 samples.

Results

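The comparison described here set adult mice that received morphine against adult mice that received saline, all of them on oral antibiotics, and used 9 of the 37 RNA-seq libraries of the study. All animals were male wild-type C57BL/6J mice. The adult animals started the experiment at postnatal day 55, took antibiotics by mouth, and were injected subcutaneously with either saline (5 libraries, replicates 1 to 5) or morphine at 15 mg/kg (4 libraries, replicates 1, 2, 3 and 5) for 5 days. The fourth morphine library was left out because its total was 58764 counts, below the minimum of 1000000. The tissue is labelled brain, and the title of the series names the medial prefrontal cortex. The labels do not say whether each library came from 1 animal, so the p-values measure a spread between libraries. That spread was estimated from all 35 libraries of the 8 groups with totals above the minimum, and not from these 9 alone. Where the effect of morphine was compared with that in other groups, these were adults that stayed on water (3 saline and 5 morphine libraries) and adolescents that started at postnatal day 25 and also took oral antibiotics (3 saline and 5 morphine libraries).

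Morphine acts on the mu-opioid receptor, a receptor coupled to inhibitory G proteins that lowers cyclic AMP and opens potassium channels. In the cortex the receptor is found mainly on inhibitory interneurons, and the medial prefrontal cortex is known for its part in reward, withdrawal and the control of drug seeking. Neuronal firing switches on immediate early genes such as Fos, Arc, Npas4 and Nr4a1 through calcium, cyclic AMP and the transcription factor CREB, whose DNA element is TGACGTCA or its shorter form TGACG. Oral antibiotics deplete gut bacteria, which make short-chain fatty acids, bile acid derivatives and vitamins that reach the host, and microglia are known to respond to such depletion.

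The 9 libraries held between 12905623 and 17467680 counts. Genes that mark cortical excitatory neurons were present in each of them, with Slc17a7, the vesicular glutamate transporter of cortical neurons, between 1505 and 1638 CPM (counts per 1000000, with totals scaled by the trimmed mean of M-values), while Drd2, a marker of striatal projection neurons, lay between 0.517 and 2.69 CPM. A pair of libraries stood apart in markers of other tissue. Saline replicate 5 had 2732 CPM of Mbp, the myelin basic protein gene, against 814 to 1519 in the other 8. Morphine replicate 1 had 45.5 CPM of the fibroblast gene Dcn against 2.08 to 15.8 in the other 8, and 133 CPM of the smooth muscle actin gene Acta2 against 6.98 to 55.3. Saline replicate 4 alone carried the choroid plexus gene Ttr, at 33.9 CPM of the unscaled total against at most 0.286 in the others.

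**Figure D1:**
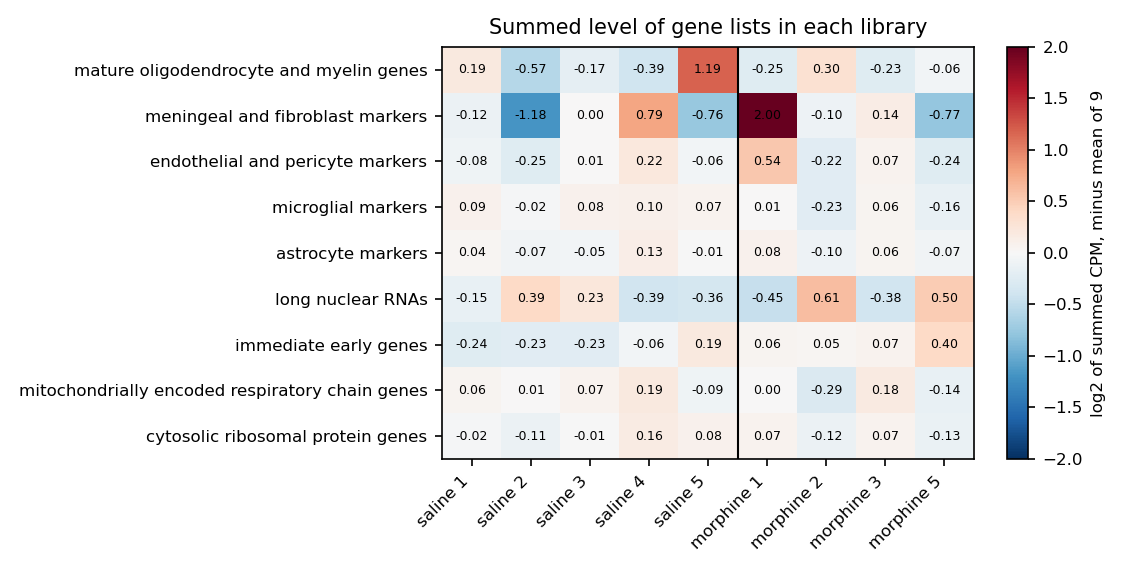
Summed CPM of the members of 9 gene lists (rows) in each of the 9 libraries (columns), as log2 of the sum minus the mean over the 9 libraries. Saline replicate 5 stands out for myelin genes (1.19), morphine replicate 1 for meningeal and fibroblast genes (2.00), and long nuclear RNAs are high in saline replicates 2 and 3 and morphine replicates 2 and 5.

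The bases in front of 5 genes are shown because the results below turn on these genes: the granin Scg2 and the clock repressor Cry1, which had the smallest p-values among genes tied to neuronal activity and to the clock, the immediate early genes Nr4a1 and Npas4, and Nab2, whose response to morphine differed by age. Each run covers the 250 bases before the start of transcription in RefSeq (GRCm38.p6), written 5′ to 3′ on the strand of the gene, with the letters of the searched motifs in capitals. Scg2 lies at chr1:79440027-79440276, minus strand, Cry1 at chr10:85185055-85185304, minus strand, Nr4a1 at chr15:101266596-101266845, plus strand, Npas4 at chr19:4989972-4990221, minus strand and Nab2 at chr10:127666704-127666953, minus strand.
Scg2: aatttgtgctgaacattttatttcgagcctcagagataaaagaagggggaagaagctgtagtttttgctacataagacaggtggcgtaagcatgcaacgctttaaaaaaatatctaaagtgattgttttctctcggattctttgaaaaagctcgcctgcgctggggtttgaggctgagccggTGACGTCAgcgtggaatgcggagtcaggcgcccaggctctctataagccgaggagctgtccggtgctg
Cry1: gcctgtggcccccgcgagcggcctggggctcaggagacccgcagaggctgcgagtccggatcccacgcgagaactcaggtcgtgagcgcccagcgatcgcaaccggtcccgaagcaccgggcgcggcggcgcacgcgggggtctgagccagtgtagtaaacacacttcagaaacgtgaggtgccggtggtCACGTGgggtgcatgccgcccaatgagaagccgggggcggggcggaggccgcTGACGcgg
Nr4a1: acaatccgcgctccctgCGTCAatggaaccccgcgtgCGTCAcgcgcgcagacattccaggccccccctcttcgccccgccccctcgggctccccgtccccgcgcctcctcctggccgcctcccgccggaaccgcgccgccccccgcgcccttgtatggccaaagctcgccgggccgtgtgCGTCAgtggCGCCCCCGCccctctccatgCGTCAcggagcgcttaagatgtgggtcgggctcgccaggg
Npas4: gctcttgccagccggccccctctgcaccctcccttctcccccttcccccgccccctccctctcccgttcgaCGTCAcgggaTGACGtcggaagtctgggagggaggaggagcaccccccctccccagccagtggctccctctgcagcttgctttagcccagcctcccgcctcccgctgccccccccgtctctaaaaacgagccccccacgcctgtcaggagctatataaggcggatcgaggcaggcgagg
Nab2: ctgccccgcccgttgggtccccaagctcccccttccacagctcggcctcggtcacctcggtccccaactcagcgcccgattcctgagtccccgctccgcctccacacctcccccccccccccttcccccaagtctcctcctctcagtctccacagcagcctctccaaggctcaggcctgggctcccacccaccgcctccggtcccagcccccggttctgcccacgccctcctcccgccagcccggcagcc
The run of Scg2 holds the full cyclic AMP response element TGACGTCA, which starts 68 bases before the start of transcription and is found in 1.55% of 32851 RefSeq promoters of the same length. Its shorter form, TGACG or CGTCA on the other strand, occurs in 17.8% of promoters. That form appears in Nr4a1 at 233, 213, 69 and 40 bases before the start, in Npas4 at 179 and 169, and in Cry1 at 8, and it is also contained in the full element of Scg2. Cry1 carries the E-box CACGTG, the element bound by CLOCK and BMAL1, 60 bases before its start, as do 6.02% of promoters at some position. The run of Nr4a1 also holds CGCCCCCGC, a form of the EGR site (searched as GCGTGGGCG and GCGGGGGCG on both strands), which overlaps no other match and is found, in any of these forms, in 3.06% of promoters. The CArG box (1.47% of promoters) and the D-box (TTACGTAA, or TTATGTAA on either strand, in 0.931%) had no match in these 5 runs, and the run of Nab2 held none of the motifs searched.

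No gene passed the threshold in the comparison of morphine with saline (edgeR's quasi-likelihood test, Benjamini-Hochberg adjusted p under 0.05, 0 of 19332 genes tested, 0.0%). The smallest adjusted p was 0.116, shared by 6 genes. When edgeR was fitted to just the 9 compared libraries, the adjusted p of Scg2, Mthfd1l, Cry1, Mgea5 and Itgam, which are among these genes, was 0.69. At an unadjusted p under 0.05 there were 1524 genes, of which 842 were higher with morphine (4.36% of all tested) and 682 were lower (3.53%). Their median absolute log2 fold change was 0.22, so the differences were small as a rule. DESeq2 called 14 genes on the same counts. Statements of higher and lower in what follows describe the values of these 9 libraries, and none of them passed the adjusted threshold unless this is said.

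Scg2 encodes secretogranin II, a granin packed into the dense-core vesicles of neurons and a source of the peptide secretoneurin. Its level was 108, 108, 111, 114 and 128 CPM in saline replicates 1 to 5 and 132, 142, 135 and 149 CPM in morphine replicates 1, 2, 3 and 5. Every morphine library was above every saline library, with group means of 139 ± 7.54 (SD, n = 4) and 114 ± 8.54 (SD, n = 5) CPM (log2 fold difference 0.29, SE 0.058, adjusted p = 0.116). The highest saline value was that of replicate 5, the library with the high myelin and immediate early genes. Without that library Scg2 passed the threshold (log2 fold change 0.34, adjusted p = 0.023), and it also passed with DESeq2 (adjusted p = 0.0101) and with limma-voom and sample weights (adjusted p = 0.0056). It passed in 6 of the 19 alternatives tried. With just the 9 compared libraries in the edgeR fit, its adjusted p was 0.69. In adults on water the log2 fold change of Scg2 was 0.01, and in adolescents on antibiotics it was -0.09.

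Mgea5, also called Oga, encodes the enzyme that removes O-linked N-acetylglucosamine from proteins. It stood at 188, 198, 204, 204 and 194 CPM in the saline libraries and 162, 165, 176 and 177 CPM in the morphine libraries. The groups did not overlap, and the morphine mean of 169.9 ± 7.58 (SD, n = 4) lay below the saline mean of 198 ± 6.5 (SD, n = 5) CPM (log2 fold difference -0.22, SE 0.041, adjusted p = 0.116). DESeq2 gave it an adjusted p of 0.000518, the smallest of its 14 calls. A predicted gene on the other strand, Gm15491, overlaps its exons, and no source used here says whether reads were counted by strand.

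Mthfd1l, the mitochondrial enzyme that turns formyl-tetrahydrofolate into formate, stood at 18.8, 17, 19.3, 18.4 and 17.1 CPM with saline and 22.1, 24.1, 20.4 and 24.8 CPM with morphine. All 4 morphine libraries were above all 5 saline libraries (log2 fold difference 0.33, SE 0.069, adjusted p = 0.116). Its log2 fold change was 0.39 in adults on water and 0.47 in adolescents on antibiotics, values that are a description and use other libraries. Mthfd1l belongs to a list of 30 tested folate and one-carbon enzymes, of which 4 were higher at an unadjusted p under 0.05 and 0 were lower (4.36% and 3.53% of all genes), with a list median of -0.02 against 0.00 for all genes. Without saline replicate 2 or 5, 1 was lower. The other 3 were Slc19a1, the reduced folate carrier, Mtr, the vitamin B12-dependent methionine synthase, and Gart, which uses formyl-tetrahydrofolate in purine synthesis. Slc19a1 stood at 13, 13.1, 13.3, 13.7 and 13.2 CPM with saline and 20.6, 15.4, 15.5 and 14.7 with morphine, and its groups did not overlap although replicate 1 alone reached 20.6 (log2 fold difference 0.32, SE 0.091, adjusted p = 0.273). Without morphine replicate 1 its log2 fold change was 0.20. Mtr had 17.9, 19.2, 21.7, 18.2 and 18 CPM with saline and 23.4, 25.8, 20.2 and 21.8 with morphine, with an overlap between the groups (log2 fold difference 0.27, SE 0.076, adjusted p = 0.284). Of 11 tested genes of vitamin B12 handling, 1 was higher (4.36% of all genes) and 0 were lower at that p, with a median of 0.00. The higher gene was again Mtr, which is in both lists.

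Cry1, a repressor of the circadian clock that binds CLOCK and BMAL1, stood at 21.5, 18.6, 18.9, 18.6 and 20.7 CPM with saline and 27.8, 27.4, 23.2 and 28.5 CPM with morphine. The groups did not overlap, and the lowest morphine value was in replicate 3 (log2 fold difference 0.44, SE 0.093, adjusted p = 0.116). Dbp, a clock output gene driven by CLOCK and BMAL1, went the other way, at 122, 114, 114, 113 and 116 CPM with saline and 96.1, 91.7, 111 and 93.1 with morphine (log2 fold difference -0.24, SE 0.059, adjusted p = 0.168). Here too morphine replicate 3 was the library nearest to saline, and the groups were separate. Among the 10 clock repressors, Cry1 and Cry2 were higher and Nr1d1 was lower at an unadjusted p under 0.05, as were 4.36% and 3.53% of all genes. Among the 15 tested clock activators and outputs, Clock was higher and Dbp was lower. The number of higher repressors was 1 without saline replicate 5 or morphine replicates 2 or 5 and 4 without morphine replicate 3, and the number of lower ones was 0 without saline replicate 1 and 2 without saline replicate 5. Clock did not have such a p without morphine replicate 2 or 5. Per1 (log2 fold change 0.17, adjusted p = 0.652) and Per2 (0.15, adjusted p = 0.69) did not pass that p and overlapped between groups. The labels give no hour of tissue collection, and its part in these values was not tested. The exons of Dbp overlap Sphk2 and those of Nr1d1 overlap Thra on the other strand.

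**Figure D2:**
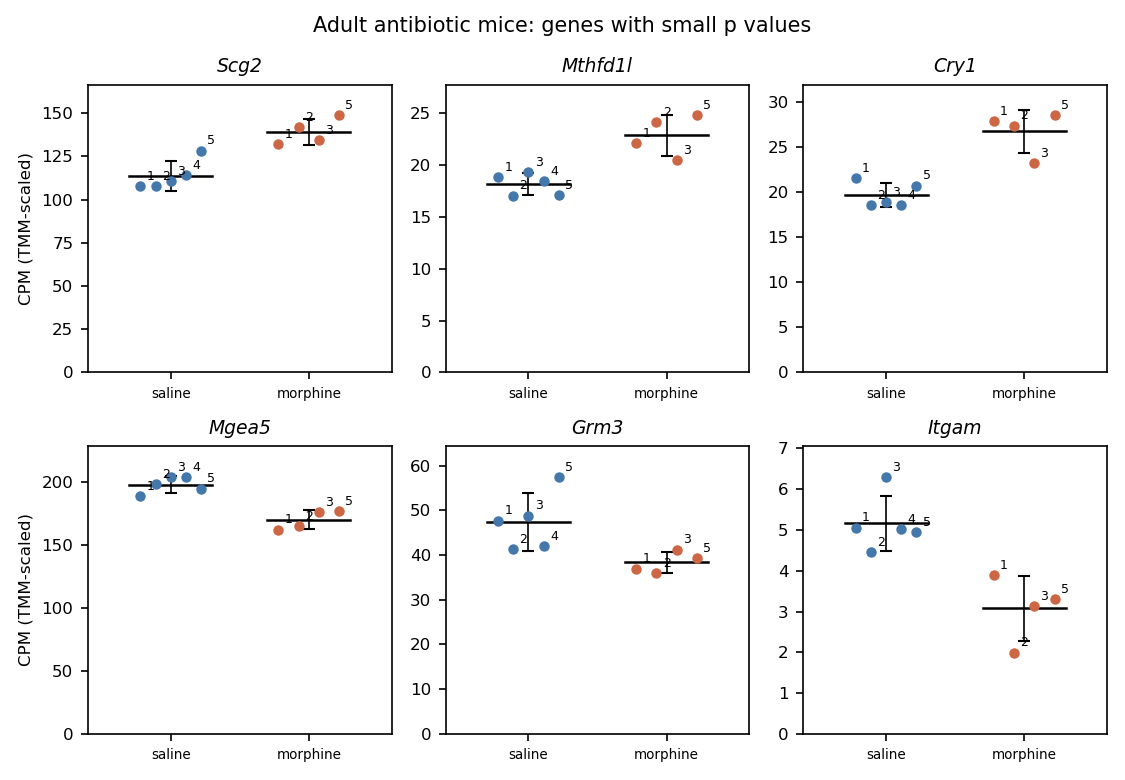
CPM of 6 genes with small p-values in the 5 saline and 4 morphine libraries of adults on antibiotics; points are libraries with their replicate numbers, bars are group means and whiskers are SD. In all 6 panels the groups are separate, and for Cry1 and Mthfd1l the morphine library nearest to saline is replicate 3.

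Other genes among the 15 smallest p-values in the higher direction included Mfsd2a, the lysophosphatidylcholine transporter of the blood-brain barrier that brings docosahexaenoic acid into brain. It stood at 16.3, 16.7, 15.6, 18.9 and 18.6 CPM with saline and 23.4, 20.4, 22.3 and 21 with morphine (log2 fold difference 0.34, SE 0.080, adjusted p = 0.168). Hexim1, an inhibitor of the transcription elongation factor P-TEFb, stood at 48.1, 49.1, 46.3, 44.1 and 46.7 CPM with saline and 57.8, 55.3, 51.3 and 53.5 with morphine (log2 fold difference 0.22, SE 0.050, adjusted p = 0.168). Both genes had separate groups. Endothelial and pericyte markers were highest in morphine replicate 1, with summed levels of 948 to 1175 CPM in the other morphine libraries and 941 to 1297 with saline. Without morphine replicate 1 the log2 fold change of Mfsd2a was 0.30. Ccng2, an atypical cyclin, Engase, a deglycosylating enzyme, and Eml2, a microtubule-binding protein, had separate groups as well, with log2 fold changes of 0.23, 0.37 and 0.21 and the same adjusted p of 0.168. Tnik, a kinase of the postsynaptic density, and Pdzd2 were highest in morphine replicates 2 and 5, with 207, 252, 191 and 249 CPM of Tnik in the morphine libraries against 195, 198, 192, 170.2 and 188 with saline, and these groups overlapped. Replicates 2 and 5 were also the morphine libraries with the highest summed long nuclear RNAs (7870 and 7308 CPM against 3766 and 3964 in replicates 1 and 3, and 6775 and 6040 in saline replicates 2 and 3), and the part of this in the values of Tnik was not tested.

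In the lower direction, Akt2, the insulin-responsive form of protein kinase B, stood at 94, 87.7, 88.6, 92.5 and 77.6 CPM with saline and 69.3, 64.3, 82.7 and 66.9 with morphine (log2 fold difference -0.32, SE 0.075, adjusted p = 0.168). Only morphine replicate 3 reached into the saline range. Ppp1r10, a regulatory subunit that targets protein phosphatase 1 to the nucleus, stood at 46.4, 47.5, 48.3, 45.3 and 45.5 CPM with saline and 44.3, 40.9, 38.9 and 39.7 with morphine, without overlap (log2 fold difference -0.19, SE 0.044, adjusted p = 0.168). Scrn3, Camkmt, the methyltransferase of calmodulin, and Stard10, a phospholipid transfer protein, were separate between groups with log2 fold changes of -0.31, -0.53 and -0.26. Arsb, the lysosomal arylsulfatase B, overlapped at morphine replicate 3, with 100.2, 91.7, 110.4 and 98.8 CPM against 117, 113, 118, 109 and 111 with saline (log2 fold difference -0.18, SE 0.044, adjusted p = 0.168). The exons of Scrn3, Tomm40l, Arsb and Gfm2 overlap genes on the other strand, so their counts may hold reads of those genes.

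Morphine replicate 3 was the morphine library nearest to saline for many of these genes. Leaving it out gave 28 genes past the threshold (13 higher and 15 lower, 0.145% of 19313 tested), while leaving out any other morphine library gave 0. Those 28 included Cry1 (log2 fold change 0.50, adjusted p = 0.0308), Mthfd1l (0.38, 0.0308), Akt2 (-0.40, 0.0308), Tnik (0.32, 0.0308), Dbp (-0.31, 0.0329), Grm3 (-0.34, 0.04) and the microglial gene Fcrls (-0.55, 0.0329). No reason in the labels sets this library apart, and its total of 13971397 counts lay within the range of the other 8.

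Immediate early genes had higher means with morphine in most members, but saline replicate 5 was as high as the morphine libraries. Of the 30 members tested, 26 had a log2 fold change above 0, as had 51.5% of all genes, with a median of 0.20 against 0.00 for all genes. However, just Nab2 and Nr4a1 had an unadjusted p under 0.05, both higher, as had 4.36% of all genes. Among the members, 0 had groups that did not overlap (240 of all genes were separate and higher, 1.24%, and 189 were separate and lower, 0.978%). Arc encodes a cytoskeletal protein that moves AMPA receptors out of active synapses. Its level was 85.7, 59.8, 51.9, 84.4 and 230.1 CPM with saline and 152, 156, 159 and 249 CPM with morphine (log2 fold difference 0.80, SE 0.42, adjusted p = 0.661). The first 4 saline libraries lay below every morphine library, and saline replicate 5 lay above 3 of the 4. Npas4, a transcription factor that organises inhibitory synapses after activity, had 8.84, 8.63, 10.5, 16.7 and 42.8 CPM with saline and 26, 26.3, 19.5 and 38.5 with morphine, and saline replicate 5 was the highest of all 9. Fos, a subunit of the AP-1 factor, had 11.7, 11.4, 13.6, 17.8 and 39.1 CPM with saline and 19.7, 19.9, 20.8 and 35.6 with morphine, and saline replicate 5 was again the highest. Nr4a1, an orphan nuclear receptor, had 63, 68.5, 57.3, 79.4 and 102 CPM with saline and 91.2, 93.7, 94.7 and 126 with morphine, where replicate 5 of either group was the highest.

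Without saline replicate 5, the groups of 9 immediate early genes did not overlap, all of them higher with morphine: Arc, Btg2, Dusp1, Egr1, Fos, Ier2, Npas4, Nr4a1 and Trib1. The same count over all genes was 487 (2.52%). In the fit without this library, 11 of the 30 had an unadjusted p under 0.05 and a higher level (864 of 19273 genes, 4.48%, with 773, 4.01%, lower), 0 were lower, and the list median was 0.25. Arc had a log2 fold change of 1.34 (SE 0.40) there, Btg2, an antiproliferative gene, 1.09 (SE 0.32), Dusp1, a phosphatase that switches off MAP kinases, 0.86 (SE 0.26), and Npas4 1.32 (SE 0.58). The adjusted p of Arc was 0.295 in that fit, the lowest in the list, so no member passed the threshold. The library that was left out is the one with the high myelin genes, and in it Gfap, an astrocyte gene of white matter and of the brain surface, also reached 97.1 CPM against 38.2 to 63.6 in the other 8. It differed in cortical neuron markers as well, with 72.6 CPM of Fezf2 (42.2 to 64.1 in the other 8) and 93.3 CPM of Cux2 (105 to 154). Morphine replicate 5 had 64.1 CPM of Fezf2 and 105 CPM of Cux2. The part of these differences in the immediate early gene values was not tested. The omission was chosen after the values were seen. Over all alternatives tried, from 1 to 11 of the 30 were higher at that p, with 1 when saline replicate 1, 2 or 3 was left out, 5 when morphine replicate 3 was left out and 6 when just the 9 compared libraries were fitted. Without morphine replicate 5, 23 of the 30 had a log2 fold change above 0, 2 were higher at that p, and the median was 0.14. In that fit the log2 fold changes of Arc, Npas4, Fos and Nr4a1 were 0.60, 0.44, 0.10 and 0.33.

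**Figure D3:**
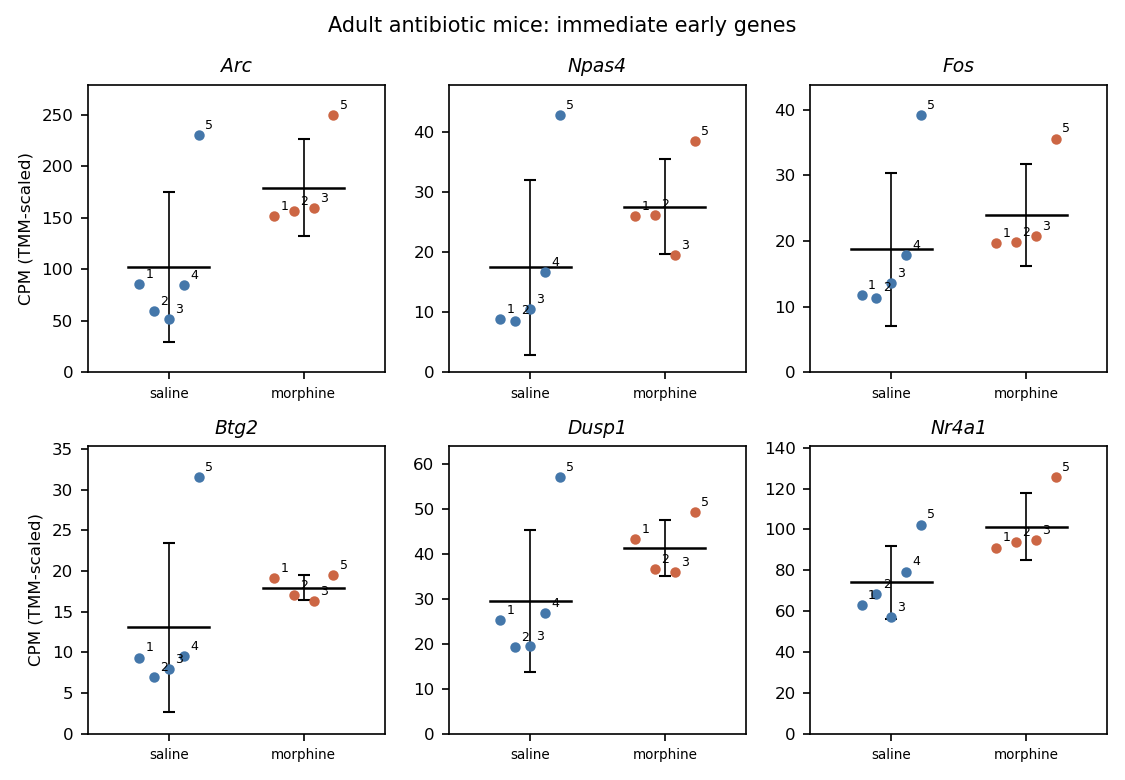
CPM of 6 immediate early genes in the saline and morphine libraries of adults on antibiotics; points are libraries with their replicate numbers, bars are group means and whiskers are SD. Saline replicate 5 lies within or above the morphine values, and the other 4 saline libraries lie below all morphine libraries in each panel.

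In the groups on antibiotics and in adults on water with saline, replicate 5 carried the highest value of most immediate early genes. It was the highest library for 21 of 30 members in the adult saline group on antibiotics, for 24 of 30 in the adult morphine group, for 18 of 30 in the adolescent saline group and for 21 of 30 in the adolescent morphine group on antibiotics. Over all genes tested, replicate 5 was the highest library for 22.7%, 24%, 34.5% and 18.9% in the same 4 groups. In adults on water it was the highest for 16 of 30 members with saline and 7 of 30 with morphine, against 31.6% and 26.2% of all genes. Adolescents on water were not counted. The labels do not say what a replicate number stands for.

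Secreted products of active neurons were mixed. Of 20 tested members of this list, Scg2 and Vgf were higher and Lingo3 was lower at an unadjusted p under 0.05 (4.36% and 3.53% of all genes), and the list median was 0.04. The number of higher members was 1 without saline replicates 1, 3 or 5 or morphine replicates 2 or 5, and Lingo3 did not have such a p without morphine replicate 1. Vgf, the precursor of neuropeptides such as TLQP-21, stood at 272, 329, 297, 301 and 269 CPM with saline and 327, 352, 336 and 351 with morphine (log2 fold difference 0.22, SE 0.10, adjusted p = 0.594). The highest saline library, replicate 2, was above the lowest morphine library. Among 16 feedback inhibitors of MAP kinase signalling, 13 had a log2 fold change above 0, as had 51.5% of all genes, with a median of 0.10. Spry2, which restrains receptor tyrosine kinases, was higher without overlap (log2 fold difference 0.16, SE 0.058, adjusted p = 0.475) and was the 1 member of the 16 at an unadjusted p under 0.05, a share near the 4.36% of all genes.

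Opioid receptor and peptide genes had differences near 0 or within the spread of the libraries. Of the 8 genes, 0 had an unadjusted p under 0.05 in either direction, and this held when each of the 9 libraries was left out in turn. Without both saline replicate 5 and morphine replicate 1, Pomc, the precursor of beta-endorphin, was lower at that p. Oprm1, the mu-opioid receptor, stood at 3.97, 2.98, 3.77, 2.93 and 4.19 CPM with saline and 3.49, 2.29, 3.34 and 5.11 with morphine, and its log2 fold change was 0.00 with an SE of 0.17. Oprd1, the delta receptor, had means of 28.1 ± 1.48 (SD, n = 5) and 28.6 ± 2.76 (SD, n = 4) CPM with saline and morphine. The values of Oprk1, the kappa receptor, were 0.10 (SE 0.31) on the log2 scale, of Penk, the enkephalin precursor, -0.13 (SE 0.45), and of Pdyn, the dynorphin precursor, -0.07 (SE 0.13). The exons of Oprm1 overlap Ipcef1 and those of Penk overlap A830012C17Rik on the other strand, so their counts may hold reads of those genes. Against 4.36% and 3.53% of all genes, 0 of 44 tested genes of G proteins, cyclic AMP and opioid effectors were higher and 1 was lower at that p. The latter was Gnao1, the G protein subunit through which opioid receptors signal in neurons, at 663, 693, 660.0, 639 and 686 CPM with saline and 594, 607, 642 and 637 with morphine (log2 fold difference -0.11, SE 0.039, adjusted p = 0.446). Without both saline replicate 5 and morphine replicate 1 it was not lower at that p and Grk3, a kinase of activated receptors, was higher, and without saline replicate 2 the number lower was 2.

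Of 33 tested glutamate receptor and auxiliary subunits, 6 were lower at an unadjusted p under 0.05 (3.53% of all genes) and 0 were higher, with a median of -0.07. The count of lower members was 3 without morphine replicate 1, where the median was -0.03, and 3 without saline replicate 3. It was 4 without both morphine replicate 1 and saline replicate 5, where 1 member, Gria1, was higher. Grm3, a presynaptic and astrocytic receptor that couples to inhibitory G proteins, stood at 47.7, 41.4, 48.8, 42 and 57.5 CPM with saline and 37, 36, 41.2 and 39.4 CPM with morphine, without overlap (log2 fold difference -0.31, SE 0.068, adjusted p = 0.168). Its highest value was in saline replicate 5. Grm7, another inhibitory metabotropic receptor, had 43.1, 45.9, 44.3, 44.7 and 39.5 CPM with saline and 33, 36.2, 38.5 and 41.4 with morphine, where saline replicate 5 and morphine replicate 5 overlapped (log2 fold difference -0.22, SE 0.074, adjusted p = 0.366). The other 4 were Grin2c, an NMDA receptor subunit, Gria4, an AMPA receptor subunit, Grik2, a kainate receptor subunit, and Neto2, which modulates kainate receptors, with log2 fold changes from -0.23 to -0.15. Gabrd, a subunit of extrasynaptic GABA receptors, stood at 59.2, 49.3, 49.4, 52.9 and 38.3 CPM with saline and 39.9, 38.7, 47.2 and 37.9 with morphine, and its groups overlapped through saline replicate 5 (log2 fold difference -0.28, SE 0.11, adjusted p = 0.511). Of 20 interneuron markers, 0 had an unadjusted p under 0.05, and 1, Kcnc1, was lower at that p without saline replicate 5.

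Microglial markers had a log2 fold change below 0 in 19 of 20 members, as had 48.5% of all genes, with a list median of -0.14. Of the 20, 8 were lower at an unadjusted p under 0.05, against 3.53% of all genes, and 0 were higher. In bulk tissue, fewer cells of a type and less RNA per cell cannot be told apart. Itgam, the integrin subunit CD11b, stood at 5.06, 4.46, 6.3, 5.02 and 4.96 CPM with saline and 3.89, 1.99, 3.13 and 3.3 CPM with morphine, without overlap (log2 fold difference -0.73, SE 0.15, adjusted p = 0.116). Its exons overlap a predicted gene on the same strand, Gm49368. Tmem119, a marker that separates microglia from blood-derived macrophages, stood at 19, 18.2, 17.1, 19.98 and 18 CPM with saline and 16.8, 12.7, 16.7 and 14 with morphine, also without overlap (log2 fold difference -0.29, SE 0.076, adjusted p = 0.189). Cx3cr1, the receptor for the neuronal chemokine fractalkine, stood at 40.04, 37.4, 42, 38.4 and 37.5 CPM with saline and 36.6, 32, 37.4 and 32 with morphine (log2 fold difference -0.18, SE 0.065, adjusted p = 0.465). For Cx3cr1 the lowest saline and highest morphine values were close, and morphine replicates 2 and 5 were the lowest. Laptm5, Tyrobp, C1qa, Fcrls and Selplg were the other members at that p, with log2 fold changes from -0.35 to -0.20. In adolescents on antibiotics, every member but P2ry13 (0.04) also had a log2 fold change below 0 with morphine, such as -0.23 for Cx3cr1.

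The summed CPM of the 20 microglial markers were 528, 489.9, 526, 531 and 521 in the saline libraries and 499, 422, 517 and 445 in morphine replicates 1, 2, 3 and 5. Replicates 2 and 5 were the lowest of all 9, and replicates 1 and 3 lay within the saline range. Long nuclear RNAs such as Malat1 and Meg3, which stay in the nucleus, summed to 4633, 6775, 6039.7, 3938 and 4021 CPM with saline and 3766, 7870.5, 3964 and 7308 with morphine. They were highest in the same 2 morphine libraries, but saline replicates 2 and 3, which were also high, had microglial sums of 490 and 526 CPM. The part of this in the microglial values was not tested. Leaving out morphine replicate 2 left 6 markers lower at an unadjusted p under 0.05, leaving out replicate 5 left 8, and leaving out replicate 3 gave 13, while leaving out both saline replicate 5 and morphine replicate 1 gave 10, with a median of -0.22.

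The myelin and meningeal lists changed sign without the libraries that stood apart. Of 24 myelin and mature oligodendrocyte genes, 21 had a log2 fold change below 0, with a median of -0.26 and 0 members at an unadjusted p under 0.05, and without saline replicate 5 the median turned to 0.17. Mbp had means of 1376 ± 789 (SD, n = 5) and 1146 ± 263 (SD, n = 4) CPM with saline and morphine. All 12 meningeal and fibroblast genes had a log2 fold change above 0, with a median of 0.81 and 0 members at that p, and without morphine replicate 1 the median turned to -0.22. Their summed CPM were 2823 in that library against 312 to 1221 in the other 8. Of 20 astrocyte markers, 0 were higher and 2 were lower (3.53% of all genes), Ntsr2 and S100b, with a median of -0.04. The number lower was 0 without saline replicate 1, 1 without morphine replicate 1, 2 or 5, and 5 without saline replicate 2 or morphine replicate 3. Without saline replicate 4, 3 astrocyte markers were higher.

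**Figure D4:**
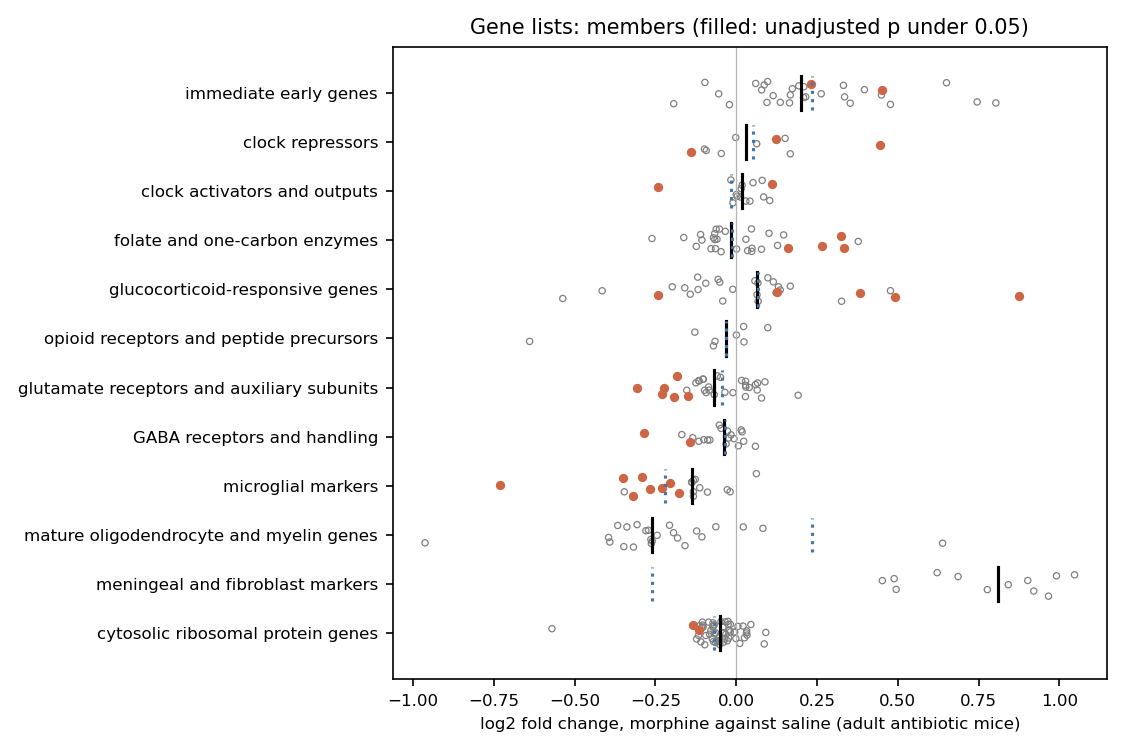
Log2 fold change of morphine against saline in adults on antibiotics for each tested member of 12 gene lists (circles, filled at an unadjusted p under 0.05). Black bars are list medians with all 9 libraries and blue dotted bars are medians without saline replicate 5 and morphine replicate 1; the medians of myelin (-0.26 and 0.23) and meningeal genes (0.81 and -0.26) change sign, and those of immediate early genes (0.20 and 0.23) and microglial markers (-0.14 and -0.22) do not.

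Glucocorticoid-responsive genes had 4 higher and 1 lower member of 29 at an unadjusted p under 0.05 (4.36% and 3.53% of all genes), with a median of 0.06. The number higher was 2 without saline replicate 3 or morphine replicate 1, and the number lower was 0 without saline replicate 2, 2 without morphine replicate 2, 3 without saline replicate 1 and 4 without saline replicate 3 or morphine replicate 3. Without both saline replicate 5 and morphine replicate 1, 3 were higher and 0 lower. Plin4, a lipid droplet coat protein, stood at 8.78, 13.2, 5.76, 11.3 and 17.5 CPM with saline and 22.3, 31, 12.9 and 17.3 with morphine (log2 fold difference 0.87, SE 0.27, adjusted p = 0.349). Fkbp5, a co-chaperone that restrains the glucocorticoid receptor, stood at 38.2, 38.5, 27.6, 53.5 and 36.2 CPM with saline and 57.8, 51.2, 44.8 and 47.8 with morphine (log2 fold difference 0.38, SE 0.15, adjusted p = 0.5). Both had overlapping groups, with saline replicate 4 among the highest for Fkbp5. Nr3c1, the glucocorticoid receptor itself, was separate between groups but by a small margin (log2 fold difference 0.13, SE 0.053, adjusted p = 0.53). Sult1a1, a sulfotransferase, was the fourth higher member (log2 fold change 0.49). Zbtb16, a zinc finger repressor, was the lower one (log2 fold difference -0.24, SE 0.096, adjusted p = 0.517), and Sgk1, a kinase that steroid hormones induce, had a log2 fold difference of 0.13 (SE 0.21).

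Of 23 chaperones and unfolded protein response genes of the endoplasmic reticulum, 4 were higher (4.36% of all genes) and 0 lower: Dnajc3, Crebrf, Hspa5 and Creld2, with log2 fold changes of 0.19, 0.15, 0.16 and 0.21. The number higher was 2 without saline replicate 2 or 4 or morphine replicate 1 or 5, and 2 without both saline replicate 5 and morphine replicate 1. Without saline replicate 2 or morphine replicate 3 or 5, 1 was lower. Of 5 RNA-binding genes in a list with the cold-inducible Cirbp and Rbm3, Cirbp (0.21), Rbm3 (0.17) and Rbm14 (0.19) were higher, as were 4.36% of all genes. Their groups overlapped, and the adjusted p of Cirbp was 0.475. Without morphine replicate 1 the log2 fold change of Cirbp was 0.13, and without that library and saline replicate 5 the number higher was 1. Of 23 insulin and insulin-like growth factor genes, 4 were higher and 1 was lower, against 4.36% and 3.53% of all genes. The higher ones included Tsc1, an inhibitor of mTORC1 (log2 fold difference 0.19, SE 0.055, adjusted p = 0.295), and the lower one was Akt2, with 2 lower without saline replicate 5. Of 13 mitochondrially encoded respiratory chain genes, 12 had a log2 fold change below 0, as had 48.5% of all genes. At an unadjusted p under 0.05, 3 were lower (3.53% of all genes), mt-Nd1, mt-Nd2 and mt-Nd4. That number was 0 without saline replicate 4, morphine replicate 2 or morphine replicate 5. Their sum was lowest in morphine replicates 2 and 5 (33240 and 36678 CPM, against 38131 to 46378 with saline), as was that of the cytosolic ribosomal protein genes (7886 and 7829 CPM, against 7936 to 9608), where 2 of 58 were lower at that p, a share near the 3.53% of all genes, and the median was -0.05. The count of 2 was 0 without saline replicate 4 or morphine replicate 2 or 5, 6 without saline replicate 3, and 10 without saline replicate 2 or morphine replicate 1 or 3. Those 2 libraries also held the most long nuclear RNA, and the part of this in the mitochondrial values was not tested.

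A test of the difference itself compared the effect of morphine between adults and adolescents on antibiotics. It called 5 of 19332 genes (edgeR's quasi-likelihood test, adjusted p under 0.05, 0.0259%, with 923 genes at an unadjusted p under 0.05). Nab2, a corepressor that binds EGR factors and is itself induced with them, stood at 41.7, 35.2, 34.1, 33.3 and 33.5 CPM with saline and 42.1, 39.6, 38.1 and 46.9 with morphine in adults. In adolescents it stood at 41.5, 45.2 and 43.7 CPM in saline replicates 1, 2 and 5 and 36.7, 32.1, 31.3, 27.1 and 33.9 CPM in the 5 morphine libraries. Its morphine effect was 0.23 in adults and -0.43 in adolescents, a log2 difference of 0.66 (SE 0.104, adjusted p = 0.00499). In adolescents all morphine libraries were below all saline libraries, whereas the adult groups overlapped through saline replicate 1. Gm16229, a predicted gene whose exons overlap Nab2 on the other strand, was also called (log2 difference 0.85, adjusted p = 0.0312), and without a known strand setting the reads of the 2 genes cannot be told apart. The exons of Nemp1 and Stat6 also overlap Nab2 on the other strand.

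Stk40, a kinase-like protein without known activity, stood at 31, 31.6, 29.6, 30.5 and 29.9 CPM with saline and 33.7, 33.6, 34.8 and 32.3 with morphine in adults, and at 40.2, 40.9 and 42.8 with saline and 26.3, 29.7, 27.3, 29.3 and 32.4 with morphine in adolescents. In adults its log2 fold change was 0.14, without an unadjusted p under 0.05 in any edgeR fit that left out 1 of the 9 libraries. The adult groups were separate with morphine higher, the adolescent groups were separate with morphine lower, and the log2 difference was 0.65 (SE 0.114, adjusted p = 0.016). Mfap3, a microfibril-associated glycoprotein, showed the same pattern, with 20.2, 21.7, 22.6, 21 and 19.8 CPM with saline and 24.8, 24.9, 25.7 and 26.8 with morphine in adults and 23.1, 25.5 and 24.4 with saline and 18.9, 20.8, 20.8, 21.4 and 19.6 with morphine in adolescents (log2 difference 0.54, SE 0.103, adjusted p = 0.0342). Zbtb16 went the other way, with 76.1, 109, 79.8, 91.2 and 86.8 CPM with saline and 65.7, 79.3, 77.9 and 76.9 with morphine in adults and 56.1, 59.7 and 56 with saline and 87.4, 78.7, 80.2, 74.3 and 82.5 with morphine in adolescents (log2 difference -0.74, SE 0.143, adjusted p = 0.0499). For these 4 named genes the adolescent groups did not overlap. Over the 17 fits that left out 1 library each, Nab2 was called in 16, Stk40 in 15, and Mfap3 and Zbtb16 in 3 each. The number of called genes was 0 without adolescent saline replicate 2, 1 without adolescent saline replicate 5, and 2 or 3 without adolescent morphine replicates 1, 2, 3 or 5, adult saline replicates 2 or 4, or adult morphine replicates 1, 2 or 5, and it reached 7 without adult saline replicate 5.

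The immediate early genes as a list differed by age in the same direction as Nab2. All 30 members had a positive difference (adult effect minus adolescent effect), with a median of 0.74 against 0.00 for all genes, and 19 of the 30 had an unadjusted p under 0.05, against 563 of all 19332 genes in this direction (2.91%). Nab2 alone of them passed the adjusted threshold. Arc stood at 116, 194 and 254 CPM with saline and 56.6, 45.5, 51.4, 67.7 and 79.9 with morphine in adolescents, so that morphine libraries were the lower group there, without overlap. Its log2 difference by age was 2.45 (SE 0.615, adjusted p = 0.353). Nr4a1 stood at 97.9, 129 and 126 with saline and 61.6, 60.5, 56.4, 55.6 and 68.4 with morphine in adolescents, a log2 difference by age of 1.40 (SE 0.282, adjusted p = 0.0778). Spry4, an inhibitor of receptor tyrosine kinase signalling, had a difference of 0.92 (SE 0.187, adjusted p = 0.0611), and Klf10, a zinc finger factor, 0.90 (SE 0.197, adjusted p = 0.151). These 4 genes were chosen after their values were seen. Over the alternatives tried for this contrast, from 16 to 23 of the 30 had an unadjusted p under 0.05 in this direction, and from 0 to 6 passed the adjusted threshold. Without adult saline replicate 5 and adult morphine replicate 1 the count was 22. In the same contrast the myelin list had a median difference of -0.73 and the meningeal list of 1.10, and their part in these values was not tested. The 20 microglial markers had a median difference by age of 0.01, with 0 above 0 and 1 below 0 at an unadjusted p under 0.05.

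A test of the difference between antibiotics and water in adults called 1 of 19332 genes (edgeR's quasi-likelihood test, adjusted p under 0.05, 0.00517%, with 735 genes at an unadjusted p under 0.05). The gene was Ppp1r10, whose adult values on antibiotics are given above. In adults on water it stood at 47.3, 43.8 and 43.8 CPM in saline replicates 1, 3 and 5 and 52.8, 50.0, 50.2, 49.1 and 53.8 CPM in the 5 morphine libraries. Morphine libraries were the higher group on water and the lower group on antibiotics, without overlap in either, and the log2 difference was -0.37 (SE 0.065, adjusted p = 0.0318). It was not called with all 37 libraries, with only the adult libraries, or without the filter on low counts. Nor was it called when 1 of 10 libraries was left out: water saline replicates 3 or 5, water morphine replicates 1 or 5, antibiotic saline replicates 1, 2 or 3, or antibiotic morphine replicates 2, 3 or 5. Microglial markers leaned the same way in this contrast, with 19 of 20 below 0, a median of -0.20 against 0.00 for all genes, and 8 of 20 at an unadjusted p under 0.05 (360 of all genes in this direction, 1.86%), and 0 of them passed the adjusted threshold. That count of 8 was 5 without antibiotic morphine replicate 2, antibiotic morphine replicate 5 or water saline replicate 5. For the immediate early genes the same contrast had a median of 0.05, with 1 of 30 members at that p.

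**Figure D5:**
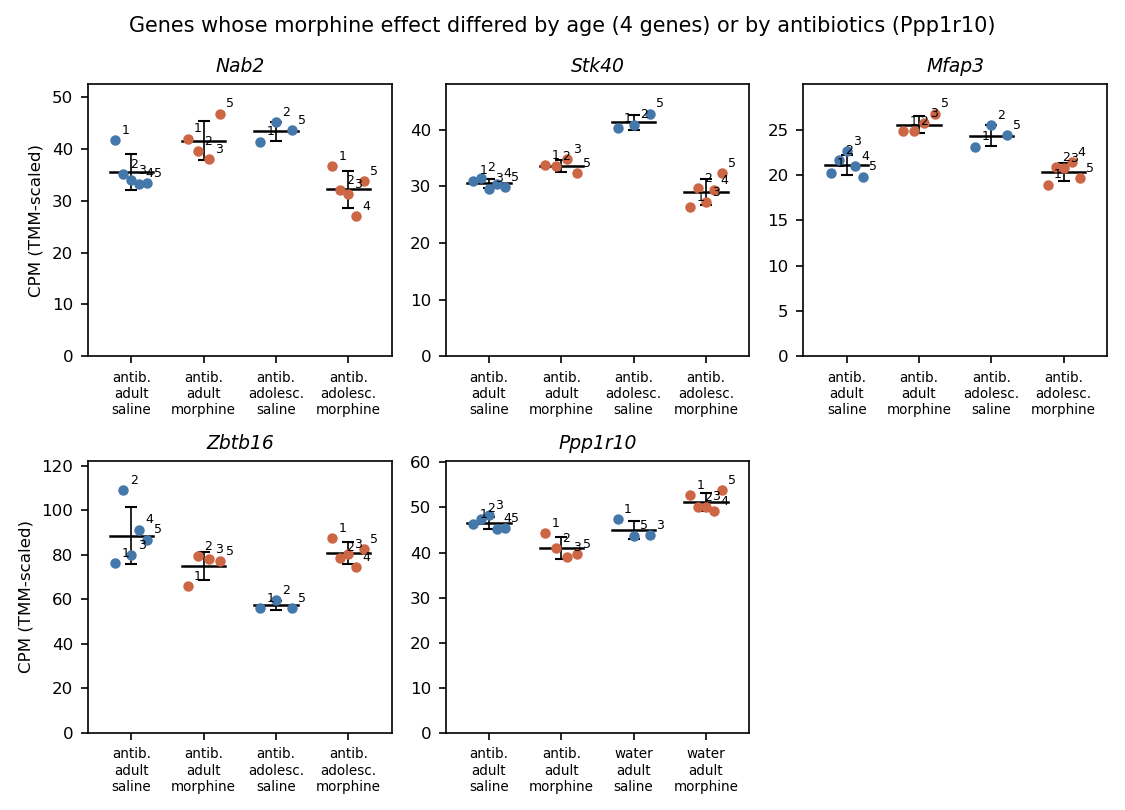
CPM of 5 genes whose morphine effect differed between groups, with points for libraries and replicate numbers, bars for means and whiskers for SD. Nab2, Stk40, Mfap3 and Zbtb16 are shown for adults and adolescents on antibiotics and Ppp1r10 for adults on antibiotics and on water; in Stk40, Mfap3 and Ppp1r10 the morphine group lies on opposite sides of the saline group in the 2 settings.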

How the data were processed

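PolyA RNA of brain tissue, all cell types per the labels, was sequenced, and the authors deposited raw read counts per gene for 37 libraries in 1 table. Per the submitters' processing notes, STAR 2.7.10a and DESeq2 were used with mm10; no source used here names the annotation release or the strand setting. Of 56980 identifiers, 52073 matched a symbol in GENCODE M21, and 4907 (3.86% of counts) did not. The 35 libraries above 1000000 counts (10630727 to 31560468) were fitted together with edgeR 4.0.16 in R 4.3.3, with a mean per group for 8 groups, TMM scaling, filterByExpr and robust quasi-likelihood tests, and Benjamini-Hochberg adjustment over 19332 genes at 0.05. The fit was tested on simulated data. Within each adult antibiotic group, libraries differed by more than sampling noise, with a chi-square per gene of 3.34 or more. None of them was thus a copy of another in its group, but this cannot show whether libraries came from the same animal. Alternatives were DESeq2 1.42.0, its size factors, limma 3.58.1 voom with sample weights, other sets of libraries, no filter, a replicate block and leaving out each library; leaving out saline replicate 5 for counts of separate groups, and with it morphine replicate 1, was added after the data were seen. Named genes were the 15 smallest p-values per direction, up to 4 members per list at an unadjusted p under 0.05, the 10 largest changes per direction among genes with separate groups, genes past an interaction threshold, and 16 fixed genes; not all 124 are printed, and some results are not reported here. The members, lists and rules were chosen with earlier results of these data known. A median or count over a list is a description, with no test. Promoter runs came from RefSeq (GRCm38.p6), with 250 bases before each start searched on both strands.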

Additional observations from a re-analysis of the deposited data

Results flagged for a closer look

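Of 246 combinations of a named gene and a group, 20 (8.13%) had a library far from the others of its group. The nominal rate of the rule is about 1 in 20 for normally distributed values, and its rate in these data was not tested. Morphine replicate 1 accounted for 7 of them. In that library Ifi35 had 3.21 CPM (1.89 to 2.07 in the others of its group), Slc19a1 20.57 (14.7 to 15.5), Dnajc3 61.78 (53.1 to 54.4), Hspb1 14.37 (5.09 to 6.04), Kcnj13 4.96 (0.905 to 1.33), Osmr 8.29 (3.03 to 3.71) and Igfbp3 25.7 (12.2 to 14.2). Morphine replicate 2 was far from its group in Pla2g3 (6.72 CPM, 2.84 to 3.38 in the others) and Stat2 (23.4 CPM, 19.1 to 19.6). Morphine replicate 3 was far in Sdc3 (226.3 CPM, 196 to 201) and Penk (37.44 CPM, 27.0 to 28.2). Morphine replicate 5 was highest and far in Nr4a1 (125.7 CPM), Fos (35.56 CPM) and Arc (249.3 CPM), and saline replicate 5 in Fos (39.12 CPM), Arc (230.1 CPM) and Npas4 (42.78 CPM). Among the other saline libraries, replicate 1 was far in Nab2 (41.7 CPM, 33.3 to 35.2 in the others), replicate 2 in Col6a2 (6.13 CPM, 9.54 to 10.8) and replicate 4 in Has3 (15.82 CPM, 19.7 to 20.9).

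The morphine effect differed between adults and adolescents on antibiotics, by a test of the difference, for Nab2 (0.658 on the log2 scale), Stk40 (0.649), Mfap3 (0.54) and Zbtb16 (-0.737), and between antibiotics and water in adults for Ppp1r10 (-0.374).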

How the results depend on the processing

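The count of 0 genes for morphine against saline stayed at 0 with DESeq2's size factors, without the filter, with the 9 or the adult libraries alone and with all 37 libraries. It was 14 with DESeq2, 3 with 34 libraries (without adolescent water saline replicate 1), 1 with limma-voom and sample weights, 2 without saline replicate 5 and morphine replicate 1 together, and from 0 to 28 when each library was left out in turn. The number of genes whose effect differed by age was 18 with DESeq2, 11 with 34 libraries, 17 with limma-voom, 3 without the filter and from 0 to 7 over single omissions. The number that differed between antibiotics and water was 0 without the filter, with the adult libraries alone and with all 37, and from 0 to 1 over single omissions.

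The replicate block (the number as a term within both adult antibiotic groups) gave 1 gene for morphine, Grm3 (log2 fold change -0.34, adjusted p = 0.0477), 8 for the difference by age and 0 for that by water. Over all genes tested, the correlation of deviations from the group means between same-numbered libraries was 0.0053 for number 1, 0.196 for number 2, -0.065 for number 3 and 0.0705 for number 5. Of the morphine libraries, replicate 2 alone correlated best with its own number. Replicates 1 and 3 correlated best with saline replicate 4 (0.332 and 0.131), and replicate 5 with saline replicate 2 (0.235). A correlation over all genes cannot show whether libraries of the same number shared a step of handling. As given above, replicate 5 was the highest library for most immediate early genes in the groups on antibiotics. It was the highest for 16 of 30 in adults on water with saline and for 7 of 30 with morphine.

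The log2 fold changes of Oprk1, Oprd1, Oprm1 and Mbp (0.0973, 0.0237, 0.0002 and -0.2643) changed sign under some alternatives. Oprm1 gave -0.0003 with DESeq2, -0.0016 with its size factors, -0.0081 without the filter, -0.0003 with 9 libraries, -0.0047 with the adult libraries, -0.0094 with all 37, -0.0017 with 34, -0.0301 with limma-voom and -0.0924 with the replicate block, where Oprk1 gave -0.0205. Mbp gave 0.231 without saline replicate 5 and morphine replicate 1. Over single omissions the log2 fold change ranged from -0.0218 to 0.2305 for Oprk1, from -0.0398 to 0.077 for Oprd1, from -0.2263 to 0.1546 for Oprm1 and from -0.431 to 0.1421 for Mbp. The cause of each change was not tested. Each group holds 4 or 5 libraries, and whether more or deeper libraries would change these counts was not tested.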
